A study of Mus musculus with 12 samples.

Results

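The Teashirt and Sall genes, 7 zinc finger transcription factor genes of the mouse (Tshz1, Tshz2, Tshz3, Sall1, Sall2, Sall3 and Sall4), were followed along the embryonic posterior neural tube. They were chosen by name, as the probe sets whose platform annotation gives exactly 1 of these symbols, which yielded 13 probe sets for 7 of the 18193 genes so annotated. The tissue came from CD1 mouse embryos, an outbred strain with no stated mutation or treatment, at embryonic day 9.5. The tube was loosened with pancreatin (2 mg per ml for 1 min), freed from ectoderm, endoderm and lateral plate, and divided into 6 pieces, parts 1 to 6. Each part was hybridised to 2 Affymetrix arrays, replicate 1 and replicate 2, and 2 embryos supplied all 12 arrays. The labels do not say which end carries number 1, so positions are given by part number.

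Teashirt was first described in Drosophila, where it is required for the identity of trunk segments, and its vertebrate relatives are multi-zinc-finger proteins that mostly repress transcription. The Sall genes are the relatives of Drosophila spalt; several of their proteins recruit the NuRD complex, which combines nucleosome remodelling with histone deacetylation. Sall4 is known for its part in the pluripotency network and in early embryonic progenitors, Sall1 for kidney and limb development, and Tshz1 and Tshz3 for forebrain, hindbrain and urogenital development.

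Signals are linear array intensities scaled by the authors to a common trimmed mean, and a signal of 1 probe set cannot be set against that of another. The median signal per array was 16.7 to 19.1, and detection calls were not used, so signals near or under that level cannot be told from background. Arrays of the same part correlated with r from 0.951 to 0.980 across 12089 genes, which are not independent replicates. Of 10 neural tube markers 9 rose with the part number, their summed signal being 762 to 873 in part 1 and 7852 to 8175 in part 6. The summed signal of 7 tested presomitic mesoderm markers went from 4017 to 5562 in part 1 to 244 to 257 in part 6, and that of 9 surface ectoderm markers from 470.1 to 1286 down to 139 to 154. Such sums follow the brightest probe sets, among the presomitic genes Rspo3 (mean 2611 in part 1) and Hes7 (1126). By slope, 4 of the 7 presomitic genes fell and 3 did not pass. Blood markers were uneven between arrays (summed signal of 6 genes 53.9 to 9955 in part 1). The part played by these tissues in the courses below was not tested, and in whole pieces fewer cells of a type and less RNA per cell cannot be told apart.

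Promoter sequence was looked up for the members that rose, since these shared a direction. The RefSeq table (GRCm38.p6) held start windows for 4 of the 7 members, Tshz2, Tshz3, Sall1 and Sall2; Tshz1, Sall3 and Sall4 were not among them. The 250 bases upstream of the RefSeq starts of Tshz3 (chr7:36697868-36698117, plus strand) and Sall2 (chr14:52328671-52328920 and chr14:52316324-52316573, minus strand) are given 5′ to 3′, because both genes rose and the 2 starts of Sall2 differ sharply in base composition. Capitals mark the motif matches described after them.
Tshz3: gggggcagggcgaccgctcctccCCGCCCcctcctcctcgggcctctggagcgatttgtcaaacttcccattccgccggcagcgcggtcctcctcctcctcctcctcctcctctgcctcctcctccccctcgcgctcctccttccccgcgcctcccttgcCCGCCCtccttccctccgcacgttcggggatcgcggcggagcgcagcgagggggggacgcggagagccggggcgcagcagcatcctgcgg
Sall2 distal start: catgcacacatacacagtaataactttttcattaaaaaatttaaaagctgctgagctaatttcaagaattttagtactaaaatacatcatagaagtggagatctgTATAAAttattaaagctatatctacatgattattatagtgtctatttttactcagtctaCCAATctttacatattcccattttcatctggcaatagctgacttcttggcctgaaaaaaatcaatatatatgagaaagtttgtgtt
Sall2 proximal start: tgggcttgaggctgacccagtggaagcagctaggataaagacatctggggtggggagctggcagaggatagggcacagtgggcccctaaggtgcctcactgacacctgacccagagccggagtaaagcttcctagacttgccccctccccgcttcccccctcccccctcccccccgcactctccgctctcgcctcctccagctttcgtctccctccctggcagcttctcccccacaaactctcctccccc

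The Tshz3 window was 74% G and C, against a median of 52.4% over 32851 windows of the same length, and held 2 GC boxes (GGGCGG, read as CCGCCC on this strand), a motif present in 32.7% of all windows. The distal Sall2 window was 28% G and C and held a match to TATA box letters (TATAAA, in 12.4% of windows), beginning 145 bases upstream. It also matched CCAAT box letters (CCAAT, in 33.8%), beginning 86 bases upstream. These shares are over windows of all base compositions and do not allow for the low G and C content of the distal window. The proximal window was 64.4% G and C and held no match to any motif searched. Both strands were searched, and no matches overlapped. Other motifs searched were that of retinoic acid receptors (AGGTCA, in 14% of windows), a TCF/LEF core (CTTTGA, in 13.8%), a Cdx-type site (TTTATG, in 10.8%) and an E-box (CAGCTG, in 13%), none of which matched in these 3 windows. The arrays read the 3′ end of transcripts and do not tell which Sall2 start was used.

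Tshz1, Tshz3 and Sall2 rose with the part number, and Sall3 fell. Sall4 had its highest means in the inner parts 2 to 4, but its slope, F test and end difference did not pass. Its call was for curvature, a quadratic term added after its signals were seen. Sall1 and Tshz2 passed no test along the tube. Slopes were tested with limma and Benjamini-Hochberg adjustment over the 12089 genes; 4 of 7 members passed (3 higher and 1 lower), where 5.66% of all genes were called higher and 7.08% lower. The F test among the 6 parts called 3 of 7 members, Tshz1, Tshz3 and Sall2 (4.91% of all genes), as did part 6 against part 1 (4.17% of all genes higher and 4.92% lower). The median slope of the 7 members was 0.05 log2 per part, against -0.0073 over all genes.

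**Figure D1:**
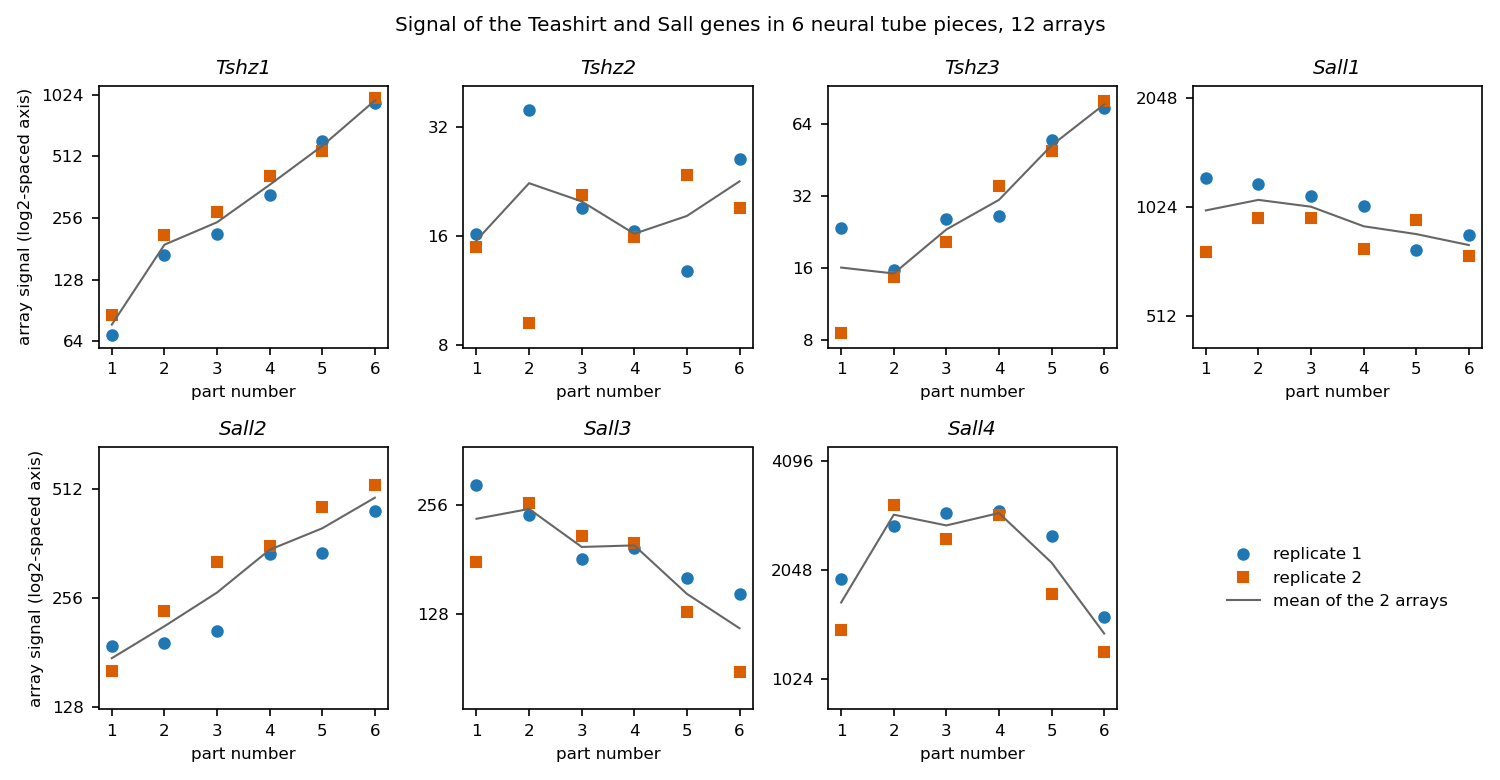
Signal of each member's representative probe set (vertical axis, array signal, log2-spaced) in parts 1 to 6 (horizontal axis); circles are replicate 1, squares replicate 2 and lines the mean of the 2 arrays. The Tshz1 points of each part lie above those of the part before, the lowest being 68.7 and the highest 982. Sall4 lies at 2489 or more on all 6 arrays of parts 2 to 4 and at 1938 or less on the 4 arrays of parts 1 and 6. The Sall4 points of part 5 (2538 and 1758) overlap with those of parts 3 and 1.

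Tshz1, the Teashirt gene with a known role in olfactory bulb neurons, had the steepest slope of the 7. Its signal was 68.7 and 85.9 in part 1 (replicate 1, then replicate 2), 168 and 211 in part 2, 214 and 274 in part 3, 331 and 412 in part 4, 605 and 547 in part 5 and 936 and 982 in part 6. Both arrays of every part lay above both arrays of the part before, a complete order found in 0.157% of all genes, and no neighbours in that order overlapped. Means were 77.3 ± 12.2 (SD, n = 2) in part 1 and 959 ± 32.5 in part 6, a 12.4-fold ratio. On the log2(signal + 4.43) scale the slope was 0.66 ± 0.040 per part (SE, limma adjusted p = 3.34e-07), the 47th highest of 12089, and part 6 exceeded part 1 by 3.57 ± 0.21 (adjusted p = 1.01e-05). Slopes were 0.70 ± 0.053 in replicate 1 and 0.63 ± 0.053 in replicate 2.

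The Tshz1 increase was spread over the tube. Part 2 had reached 35.0% of the log2 difference between the ends, part 3 44.9%, part 4 61.7% and part 5 79.5%. The step from part 1 to part 2 was 1.25 ± 0.21 log2 and just missed the threshold (limma adjusted p = 0.0533), in a comparison that called 0.248% of all genes; with the replicate number as a block it passed (adjusted p = 0.0257). Later steps did not pass, in comparisons that called 0.19% (part 3 against part 2) and 0.00827% (each of the others) of all genes; they were 0.36 ± 0.21 between parts 2 and 3 and up to 0.73 ± 0.21 between parts 5 and 6. The other probe set of Tshz1 gave the same direction with a smaller range, 30.7 and 33.1 in part 1 against 140.5 and 108 in part 6. Its slope was 0.38 ± 0.038 (adjusted p = 4.46e-05 over 21679 probe sets, of which 4.07% were called higher).

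Tshz3, which is required for ureter smooth muscle and for hindbrain neurons that drive breathing, also rose with the part number. Its signal was 23.7 and 8.57 in part 1, 15.7 and 14.8 in part 2, 25.8 and 20.7 in part 3, 26.4 and 35.5 in part 4, 54.9 and 49.7 in part 5 and 74.7 and 80.6 in part 6. Parts 3 to 6 did not overlap with one another, whereas part 1 overlapped with parts 2 and 3. Parts 1 and 2 lay near the median of their arrays, so a level there is at the limit of what the arrays resolve.

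Tshz3 averaged 16.1 ± 10.7 (SD, n = 2) in part 1, a level that cannot be told from background, and 77.6 ± 4.19 in part 6. Its slope was 0.44 ± 0.051 log2 per part (limma adjusted p = 8.45e-05), and part 6 exceeded part 1 by 2.10 ± 0.31 (adjusted p = 0.00306). The size of that difference was not resolved, being 2.66 without replicate 1 of part 1 and 1.55 without replicate 2 of part 1, and it passed in both cases (adjusted p = 0.000369 and 0.00414). The F test (adjusted p = 0.0138) lost its call without either array of part 6 (0.0592 and 0.0691).

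Tshz2, the remaining Teashirt gene, stayed at or near background. Its highest probe set read 16.2 and 14.9 in part 1, 35.6 and 9.18 in part 2, 19.2 and 20.7 in part 3, 16.5 and 15.9 in part 4, 12.8 and 23.6 in part 5 and 26.2 and 19.1 in part 6. Ranked by mean (parts 6, 2, 3, 5, 4 and 1), all neighbours overlapped, and 6 of 12 signals exceeded their array's median. The slope was 0.05 ± 0.064 log2 per part (limma adjusted p = 0.704). The other probe sets did not pass the signal filter; they ranged from 2.22 to 19.3 and from 0.164 to 1.23, values that carry no order.

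Sall2, the most divergent Sall gene, also rose. Its signal was 188 and 160.2 in part 1, 192 and 235 in part 2, 207 and 322 in part 3, 339 and 356 in part 4, 341 and 456 in part 5 and 444 and 524 in part 6. Both arrays of part 6 exceeded both of part 1, as in 20.2% of all genes, and between neighbours the arrays separated from part 1 to part 2 and from part 3 to part 4 while the other neighbours overlapped. The mean went from 174 ± 19.8 to 484 ± 56.5 (SD, n = 2), a ratio of 2.78. The slope was 0.29 ± 0.035 log2 per part (limma adjusted p = 9.61e-05) and the difference between the ends 1.45 ± 0.24 (adjusted p = 0.00571), lost without replicate 2 of part 6 (0.0553). The F test (adjusted p = 0.0339) no longer passed in 9 of the 12 fits that each lacked 1 array (up to 0.120), the exceptions being those without an array of part 3 or replicate 1 of part 5, and no single step passed.

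Sall3, known for cranial nerve and palate development, went the other way. Its representative probe set read 291 and 179 in part 1, 241 and 259 in part 2, 182 and 211 in part 3, 195 and 201 in part 4, 162 and 129.7 in part 5 and 145 and 88.8 in part 6. Ranked by mean (parts 2, 1, 4, 3, 5 and 6), neighbours overlapped except that both arrays of part 5 lay below both arrays of part 3. The mean dropped from 235 ± 79.7 to 117 ± 39.9 (SD, n = 2).

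The slope of Sall3 was -0.21 ± 0.046 log2 per part (limma adjusted p = 0.00929). With both part 6 arrays removed it missed the threshold (-0.16 ± 0.054, adjusted p = 0.103). Part 6 against part 1 gave -0.98 ± 0.28 and missed the threshold (limma adjusted p = 0.0608). The difference also missed it over every kept probe set (0.0825), but passed with the replicate block (0.0407). With 1 array left out at a time it ranged from -1.32 to -0.63. It was largest without replicate 2 of part 1 and without replicate 1 of part 6 (-1.32 in both). The F test did not pass (adjusted p = 0.207). The other probe set of Sall3 fell too, with 125 and 101.3 in part 1, 51.9 and 66.4 in part 6 and a slope of -0.22 ± 0.039 (adjusted p = 0.00251 over all kept probe sets, of which 4.86% were called lower). That probe set was lowest in part 5, at 46.7 and 64.2.

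Sall4, the pluripotency factor, had its highest means in parts 2 to 4, but its slope, F test and end difference did not pass. Its representative probe set read 1938 and 1395 in part 1, 2721 and 3109 in part 2, 2955 and 2489 in part 3, 2982 and 2907 in part 4, 2538 and 1758 in part 5 and 1520 and 1216 in part 6. All 6 arrays of parts 2 to 4 lay above the 4 arrays of parts 1 and 6, an arrangement chosen after its values were seen and found in 0.802% of all genes. Parts 2, 3 and 4 overlapped with one another, as did parts 1 and 6. Part 5, left out of that arrangement, overlapped with part 3 (2538 against 2489) and with part 1 (1758 against 1938). The mean was 1666 ± 384 in part 1, 2945 ± 53.2 in part 4 and 1368 ± 215 in part 6 (SD, n = 2), so that part 4 stood at 1.77 times part 1 and 2.15 times part 6.

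The slope of Sall4 was accordingly small, -0.08 ± 0.073 log2 per part (limma adjusted p = 0.568), and part 6 did not differ from part 1 beyond the spread (-0.27 ± 0.24, adjusted p = 0.556). Without the arrays of part 1 the slope was -0.25 ± 0.061 and passed (adjusted p = 0.0299), and without those of part 6 it was 0.074 ± 0.079 (0.655). A term for curvature (a quadratic term in part number), added after the signals of Sall4 were seen, was -0.16 ± 0.027 log2 per squared part number (limma adjusted p = 0.0109). It was the 120th most negative of 12089, and 0.960% of genes were called with a negative curvature. The F test missed the threshold (adjusted p = 0.0692) and passed with the replicate block (0.0322). The curvature did not pass without replicate 2 of part 6 (0.0517) or when the probe sets of the gene were averaged (0.0905). Sall4 was the single member with a called curvature.

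The other probe set of Sall4 has a suffix that marks it as one that may match several transcripts. It also had its highest means in parts 2 to 4, but with a wide gap between replicates, and all neighbours ranked by mean overlapped. It read 154 and 82.2 in part 1, 270.4 and 172 in part 2, 318 and 126 in part 3, 241 and 129 in part 4, 145 and 86.5 in part 5 and 136 and 49.3 in part 6. Replicate 1 was above replicate 2 in all 6 parts, by ratios of 1.57 to 2.75. The difference of replicate 2 from replicate 1 was -0.96 ± 0.13 log2 (limma adjusted p = 0.00646 over 21679 probe sets, of which 3.72% were called in either direction). In the representative probe set the same ratio was 0.875 to 1.44 and the difference -0.24 ± 0.12 (adjusted p = 0.293). The curvature of the other probe set was -0.16 ± 0.062 and did not pass (limma adjusted p = 0.398). Its F test did not pass either (adjusted p = 0.746).

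**Figure D2:**
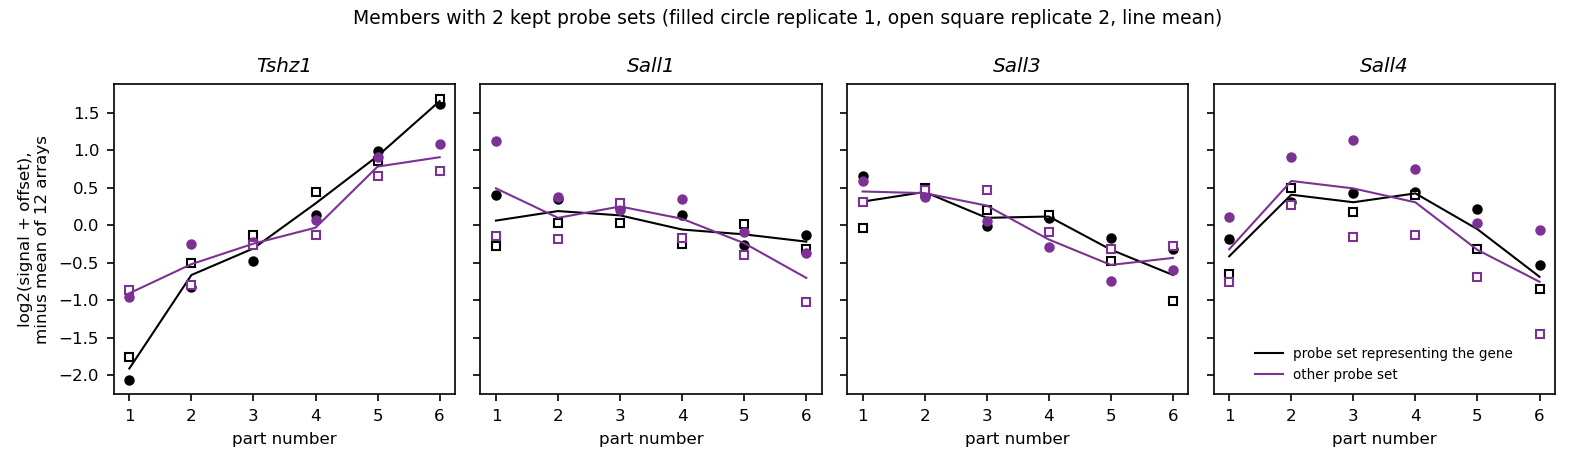
Members with 2 kept probe sets: log2(signal + 4.43) minus the mean of the 12 arrays (vertical axis) against part number (horizontal axis). Black is the probe set that represents the gene and purple the other, filled circles are replicate 1, open squares replicate 2 and lines the mean of both. The purple Sall4 circles lie above the squares in all 6 parts, and the black Tshz1 line is steeper (0.66 per part) than the purple line (0.38).

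Sall1, which is mutated in Townes-Brocks syndrome, was bright and nearly level in its representative probe set. That probe set read 1235 and 772 in part 1, 1189 and 957 in part 2, 1100 and 955 in part 3, 1032 and 783 in part 4, 781 and 945 in part 5 and 858 and 752 in part 6. Ranked by mean (parts 2, 3, 1, 4, 5 and 6), all neighbours overlapped. The slope was -0.07 ± 0.038 log2 per part (limma adjusted p = 0.248), and it passed without replicate 2 of part 1 (-0.12, adjusted p = 0.0313). The other probe set ranged from 18.7 to 98.7, with a mean of 68.4 ± 42.8 in part 1 and 25.3 ± 9.37 in part 6 (SD, n = 2). Its slope was -0.20 ± 0.063 and did not pass (limma adjusted p = 0.0623 over all kept probe sets).

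**Figure D3:**
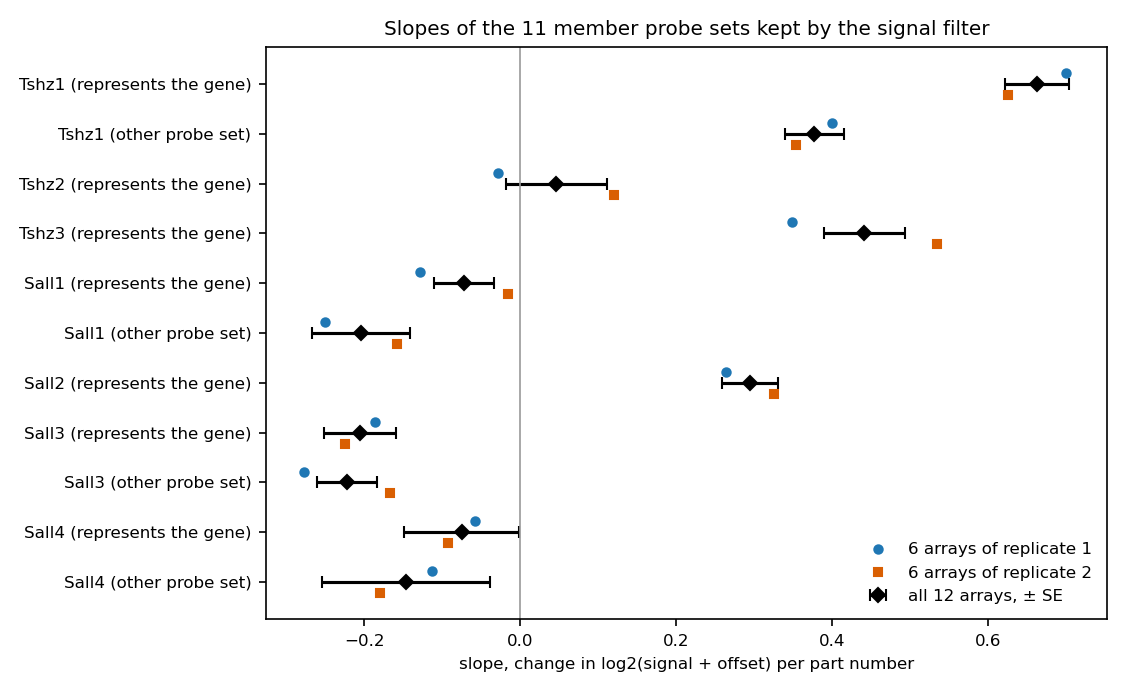
Slope of log2(signal + 4.43) per part number (horizontal axis) for the 11 member probe sets that passed the signal filter (vertical axis). Diamonds with bars are the estimate over 12 arrays ± SE, circles and squares the slopes within replicate 1 and replicate 2. Apart from Tshz2, each probe set has the same sign in both replicates.

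The courses of the 2 replicates, taken as the 2 embryos, were compared directly. The limma test of the slope difference between replicates called 0 of 7 members and 0 genes in all (0% of all genes, and 798 at an unadjusted p under 0.05). The member nearest to a difference was Tshz3, with slopes of 0.35 ± 0.063 in replicate 1 and 0.53 ± 0.063 in replicate 2 and a difference of 0.19 ± 0.090 (adjusted p = 0.752). In overall level, no representative probe set differed between replicates (0 of 7 members, where 1.63% of all genes were called). Values of Sall2 were 0.23 ± 0.12 log2 higher in replicate 2 (adjusted p = 0.320) and those of Sall1 0.25 ± 0.12 lower (-0.25, adjusted p = 0.305).

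Across the 12 arrays, which share the part number as a common axis, the members' log2 signals grouped as their courses did. Pearson's r was 0.94 between Tshz1 and Sall2, 0.88 between Tshz1 and Tshz3 and 0.87 between Tshz3 and Sall2. Sall3 ran against them, with r from -0.77 with Tshz1 to -0.73 with Tshz3 and with Sall2. Sall4 correlated with Sall3 at 0.64 and with Tshz1 at -0.21. Some members are neighbours on a chromosome: in the RefSeq gene order a single protein-coding gene (n = 1) lies between Sall4 and Tshz2, and 4 lie between Sall3, which fell, and Tshz1, which rose.

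For each member that passed the slope or F test, the 3 other genes with the most similar log2 signals over the 12 arrays were named. Nearest to Tshz1 were the BMP antagonist Grem1 (r = 0.988), the Frizzled receptor Fzd3 (0.987) and the cell polarity gene Pard3b (0.986), with mean signals in parts 1 and 6 of 5.82 and 73.3, of 431 and 850.2 and of 16.0 and 108. Tshz3 was most like the FGF receptor Fgfr3 (0.971), Emid1 (0.969) and the utrophin gene Utrn (0.965). Sall2 was most like Pard3b (0.974), the RNA helicase gene Ddx21 (0.963) and Ildr2 (0.963). The falling course of Sall3 was closest to Ddah2 (0.949), the Hox gene Hoxa7 (0.946) and Egflam (0.936), the last going from 111 to 7.13.

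Genes known to act with these factors were counted next. Of 13 NuRD subunits 0 rose and 0 fell by slope (median 0.02 log2 per part, against -0.0073 over all genes; 12.7% of all genes were called in either direction). The closest to the threshold was Mbd3, at 0.11 ± 0.037 (limma adjusted p = 0.0812), followed by Mbd2 at -0.05 ± 0.030 (0.281) and the deacetylase Hdac1 at -0.04 ± 0.026 (0.324). Of 6 genes, those of the cereblon ubiquitin ligase, which thalidomide directs to Sall4, and Zbtb16, another of its zinc finger substrates, 0 passed (median -0.03). Values were 0.06 ± 0.028 for Cul4a, -0.06 ± 0.032 for Ddb1 and -0.04 ± 0.035 for Crbn.

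Pluripotency factors that act with Sall4 went both ways. Of 9 listed, 5 had a signal high enough to be tested, 1 rose and 2 fell (median -0.24). Sox2, which is also a neural progenitor gene, rose from 243 ± 61.9 to 1518 ± 131 (SD, n = 2; slope 0.44 ± 0.099, limma adjusted p = 0.00945). Zscan10 fell by 0.26 per part, from 98.2 ± 14.2 to 30.1 ± 1.91 (adjusted p = 0.000948), and Pou5f1 fell from 14.3 ± 6.29 to 4.75 ± 4.27, with no signal above 18.7, near the array medians (adjusted p = 0.0499). Nanog and Dppa2 stayed under 8 on all arrays, at no more than 7.96 and 7.71. Of 13 tested caudal progenitor genes, such as Evx1 (-0.89 ± 0.052) and Fgf17 (-1.10 ± 0.093), 11 fell and 0 rose, with a median of -0.49.

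Of 7 Meis, Pbx and Pknox genes, the homeodomain cofactors of Hox proteins, 4 rose and 0 fell (median 0.25), among them Meis1 (0.95 ± 0.051), Meis2 (1.01 ± 0.11) and Pbx3 (0.44 ± 0.068). Of 10 corepressor, TCF/LEF and associated genes, with Ctnnb1 and Apbb1 among them, 2 rose and 1 fell (median 0.08). Tcf7l1 (0.34 ± 0.064) and Tcf7l2 (0.25 ± 0.056) rose and Lef1 (-0.27 ± 0.073) fell. Of 9 zinc finger homeodomain genes, a class to which the Teashirt proteins are related, 2 rose and 0 fell (median 0.04), namely Zfhx3 (0.34 ± 0.062) and Zfhx4 (0.35 ± 0.087), and Zeb2 had a slope of 0.36 ± 0.14 that did not pass (limma adjusted p = 0.109). Of 7 genes of the Eya, Dach and sine oculis network, which acts with teashirt in the fly eye, 1 fell, Six4 (-0.21 ± 0.029), and 0 rose (median -0.005).

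**Figure D4:**
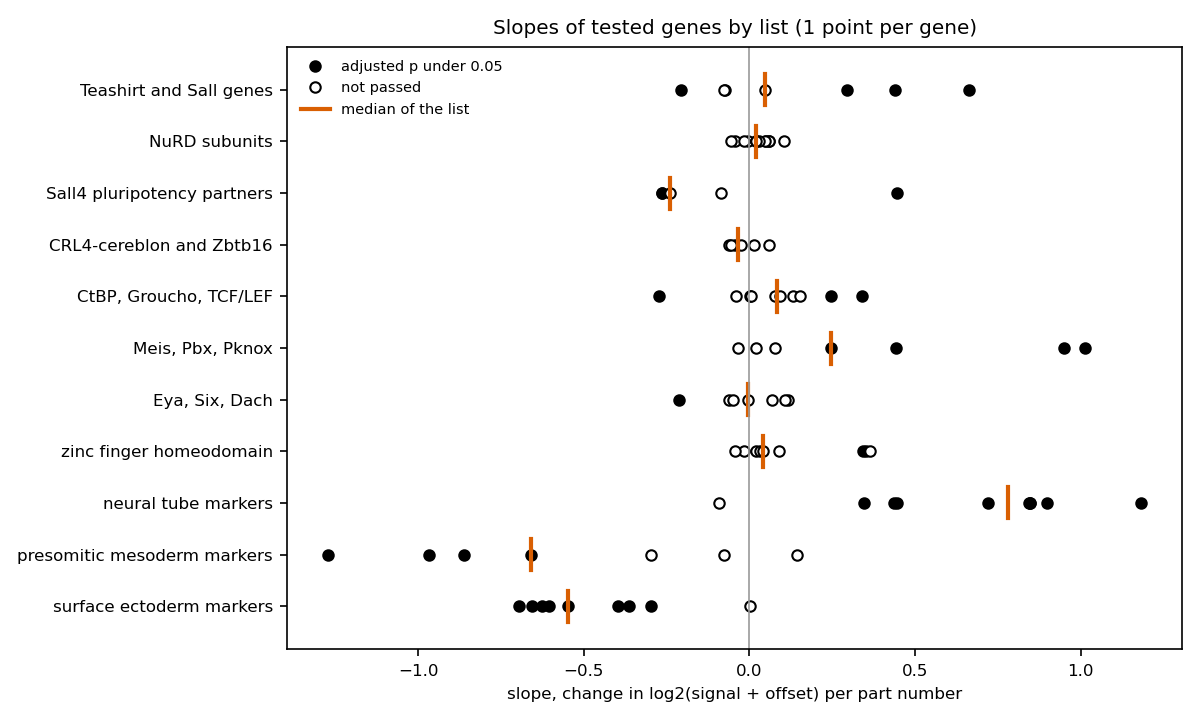
Slope of log2(signal + 4.43) per part number (horizontal axis) for the 7 members and each tested gene of 10 lists (vertical axis), filled where the limma adjusted p was under 0.05 and open otherwise, with a bar at each list's median. The 7 members spread from -0.21 to 0.66, while the 13 NuRD subunits stay between -0.05 and 0.11 and none is filled.

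Markers of other tissues that could be dissected along with the tube were set beside the members, since Teashirt genes are also known in somites. Of 8 somite markers 3 were tested; Tcf15 fell, and the others did not pass (median -0.28). Their summed signal was 92.2 to 156 in part 1 and 41.3 to 55.8 in part 6. The highest sum of all arrays, 451, was on 1 array of part 2, and the other array of that part gave 94.9. Meox2, Pax1, Pax9, Uncx and Myf5 were too low to test, at no more than 19.1 on any array. Of 7 tested neural crest markers 2 rose, Foxd3 (0.79 ± 0.092) and Tfap2b (0.44 ± 0.13), and 0 fell (median 0.08). Their summed signal did not rise steadily. It was 240 to 284 in part 1, 134 to 363 in part 2, 121 to 174 in part 3 and 160 to 166 in part 4. In parts 5 and 6 it was 208 to 269 and 431 to 544. Whether crest cells carried part of the Tshz1 and Tshz3 signal was not tested.

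The presomitic mesoderm and surface ectoderm markers, given above, were highest in parts 1 and 2, where Sall3 was also highest; 4 of 7 and 8 of 9 of them fell, and their part in the Sall3 course was not tested. Of 6 blood, 4 lateral plate and 1 endothelial marker genes tested, 0 rose and 0 fell (medians -0.03, 0.03 and -0.03). Of 3 notochord and 3 gut endoderm markers Foxa2, which is also a floor plate gene, rose (medians -0.13 and 0.13). Cdx2 of the gut list, which is also among the caudal progenitor genes counted above, fell.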

How the data were processed

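RNA of 12 dissected pieces was amplified in a pair of rounds and labelled with biotin, per the labels' protocols. The deposited array intensities, on a linear scale, came from MAS5 according to the submitters' processing notes, with no version or settings given in the sources used here. Without the highest and lowest 2% of signals, the mean was 100.001 on every array.

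Left out were 64 control probe sets, 932 annotated with several genes and 9211 with none (some of the control probe sets among them), out of 45101. Those above the median of their array on 2 or more arrays were kept (21679, with 11 of the 13 member probe sets); for genes with several, the brightest on average stood for the gene. Signals were analysed as log2(signal + 4.43), where 4.43 is 0.25 times the overall median, with limma 3.58.1 (lmFit, eBayes) in R 4.3.3. Tested were the slope per part number, differences among parts (F test), part 6 against part 1, consecutive steps, and slope and level differences between replicates. Each was adjusted by Benjamini-Hochberg over all features, at 0.05. Scripts were tested on simulated data.

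Same-numbered arrays deviated together from their part means in all 15 pairs of parts (r from 0.183 to 0.335). The design text names 2 embryos, so the replicate number was read as the embryo. A processing batch shared by same-numbered arrays could not be told apart from a shared embryo. Fits without the replicate block ignore that arrays share an embryo, and p-values rest on 2 embryos. With 2 arrays per part, their number limits the precision.

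The members and gene lists were chosen with earlier results of these data known. Named are all members, the 3 most similar genes per called member (no clone or predicted symbols) and up to 3 genes per list with the smallest slope p; other genes were chosen after their values were seen. Listed genes that no single-gene probe set names were not analysed here. Alternatives were other offsets, filters, quantile normalization, other ways to join probe sets, eBayes with trend, the replicate block, and each array or both arrays of an end part left out.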

Additional observations from a re-analysis of the deposited data

How the results depend on the processing

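The slope calls of Tshz1, Tshz3 and Sall2 kept direction and side of the threshold under every alternative in which the gene was tested, and that of Sall3 in all but the fit without both arrays of part 6. With the replicate block, calls changed for the F test of Sall4, the end difference of Sall3 and the first step of Tshz1, and for no other member. The end difference of Sall3 also passed with an offset of 1.0 times the median (limma adjusted p = 0.0390), the stricter filter (0.0355), quantile normalization (0.0427), probe sets averaged (0.0182) and the trend (0.0324), and the F test of Sall4 with that offset (0.0288), that filter (0.0312) and the trend (0.0152). The F test of Sall2 did not pass with no filter (0.0721) or over every probe set (0.0520). The stricter filter, at the 75th percentile, removed Tshz2 and Tshz3, so that neither was tested there and 3 members passed the slope test in place of 4. Low signals limit Tshz2 and the first parts of Tshz3.

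Slope calls over all genes fell from 1540 to 903 without the arrays of part 1 and to 976 without those of part 6, where the slope of Sall4 turned to 0.074. Genes differing between replicates, 197 as reported, numbered 405 with an offset of 1.0 times the median, 114 with no filter, 488 with the stricter filter and 611 with a trend in eBayes. Over every probe set the count was 806 of 21679 probe sets, a unit other than genes. Members differing between replicates went from 0 to 1, Sall4, with probe sets averaged and over every probe set. Genes with a curvature went from 179 to 119 with no filter, and members from 1 to 0 with probe sets averaged. Genes called in at least 1 step went from 51 to 80 with the larger offset, 20 with no filter, 98 with the stricter filter, 89 with the trend and 78 with the replicate block. Members among them went from 0 to 1, Tshz1, in all of these but the fit with no filter. With probe sets averaged, the slope difference of Sall3 turned to 0.036 and the replicate difference of Tshz1 to -0.0096.

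Leaving out 1 array at a time gave 344 to 566 genes and 1 to 3 members in the F test, 487 to 1305 genes and 2 to 4 members for part 6 against part 1, 113 to 161 genes between replicates, 109 to 194 genes and 0 to 1 members for curvature, and 20 to 128 genes in the steps. Uncalled values crossed 0: the end difference of Sall1 (-0.62 to 0.057), the slope differences of Sall3 (-0.18 to 0.060) and Sall4 (-0.26 to 0.12), the replicate differences of Tshz2 (-0.39 to 0.058) and Tshz3 (-0.29 to 0.0023), and the curvatures of Tshz2 (-0.014 to 0.019), Sall1 (-0.042 to 0.0087) and Sall2 (-0.022 to 0.0050). The cause of these changes was not tested.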
